A study of Arabidopsis thaliana with 4 samples.

Results

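Jasmonates are lipid-derived hormones that plants make from fatty acids of the plastid after wounding, attack and some abiotic stresses. The active conjugate with isoleucine binds the receptor COI1, which leads to the loss of JAZ repressors and frees transcription factors such as the MYC proteins. Enzymes that oxidise or cleave jasmonates keep the hormone low, and output genes such as defensins are used as markers of the response. The pathway is followed here at 4 steps, each by 1 gene: ORA47 as a regulator of synthesis, JRG21 as an inactivating enzyme, MYC3 as a transcription factor of the response, and PDF1.2 as an output gene. These genes were picked with earlier results of the same arrays known, and their probe sets were then found by symbol in the platform annotation of the array. Each had 1 probe set, so that 4 genes stand against 13356 genes that the annotation names through a single-gene probe set.

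RNA came from whole Arabidopsis thaliana seedlings that were 16 days old and had spent 6 h on plates with 40% polyethylene glycol (PEG), which withdraws water and so imposes osmotic stress. The ced1 group had 2 arrays of ced1 mutant seedlings, and the WT group had 2 arrays of wild-type seedlings. Both groups carry the gl1-Col0 background, in which leaves lack hairs, and both were treated with PEG. As background, ced1 is 1 allele of BODYGUARD, which plants need for an intact cuticle, and stress induces NCED3, a gene of abscisic acid synthesis, weakly in this mutant. BODYGUARD itself was not analysed here, so the mutated gene gave no check of the labels. No unstressed seedlings were analysed here, so every value is a level after PEG and not a response to it. The labels call the arrays biological replicates without saying how the seedlings were kept apart, so p-values measure the spread between these arrays.

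Values are MAS5 signals, 1 linear intensity per probe set and array. Array medians were 186 and 187.5 for ced1, against 156.3 and 173.3 for WT. Over the tested probe sets the log2 signals of the ced1 arrays correlated at r = 0.989 and those of the WT arrays at r = 0.970, against 0.839 to 0.874 between genotypes. Differences are given as ced1 minus WT on the log2(signal + 16) scale, with the standard error (SE) of a limma fit over 13648 probe sets and Benjamini-Hochberg adjusted p-values. The remaining 9098 probe sets had a mean log2(signal + 16) below that of a signal of about 103 and were not tested. The genotypes differed widely: 42.4% of the tested probe sets passed an adjusted p of 0.05, with 23.2% higher and 19.2% lower in ced1. For 74.7% of them the ced1 signals did not overlap the WT signals.

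All 4 genes passed the test, as did 42.4% of all tested probe sets. ORA47 and PDF1.2 were higher in ced1, and JRG21 and MYC3 were lower. In each of the 4 the ced1 signals did not overlap the WT signals, as in 74.7% of all tested probe sets. The sizes were unequal: JRG21 had the 13th lowest difference of the 13648 tested probe sets, ORA47 the 87th highest and PDF1.2 the 110th highest. For MYC3, by contrast, 36.4% of the tested probe sets had a larger absolute difference.

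**Figure D1:**
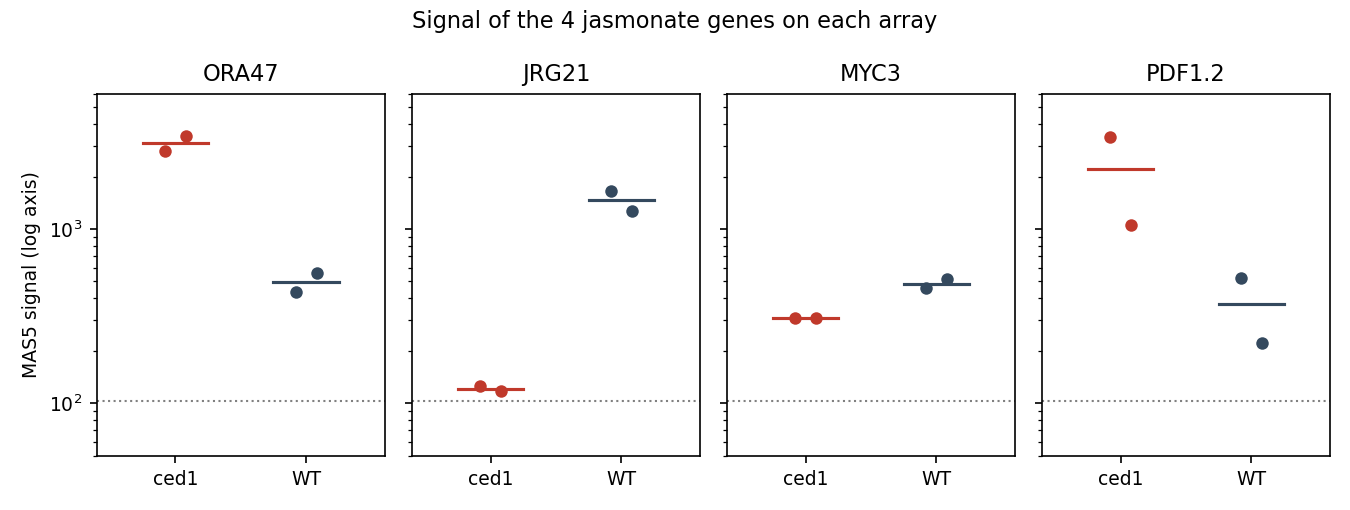
MAS5 signal (log axis) of ORA47, JRG21, MYC3 and PDF1.2 on the 2 ced1 arrays (red, left) and the 2 WT arrays (blue, right); points are arrays, bars are means and the dotted line is the filter level of about 103. Both ced1 points of ORA47 and PDF1.2 lie above both WT points, those of JRG21 and MYC3 lie below, and PDF1.2 has the widest spread within each genotype.

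ORA47 (AT1G74930) codes for an AP2/ERF transcription factor that is known to switch on jasmonate synthesis genes when overexpressed in Arabidopsis. Its signal was 2803 and 3416 on the ced1 arrays, against 434 and 559.9 on the WT arrays. Both ced1 arrays were thus several times higher than either WT array, and the arrays of a genotype lay close together. The means were 3109.5 ± 433 in ced1 and 497 ± 89.3 in WT (SD, n = 2 each), a signal ratio of 6.26. The log2 difference was 2.61 ± 0.18 (SE, 95% interval 2.19 to 3.03, adjusted p = 0.000183). It kept its direction and passed in each of the 12 alternative settings that were run, at 2.43 to 2.79.

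Of the 25 genes listed for jasmonate synthesis, ORA47 included, 5 had a named probe set and 3 of these were tested. ORA47 and OPCL1 were higher in ced1, against 23.2% of all tested probe sets, and AIM1 did not pass. OPCL1, a peroxisomal ligase that activates a jasmonate precursor for chain shortening, had signals of 1200.0 and 1094 on the ced1 arrays, against 402 and 597 on the WT arrays. Its log2 difference was 1.198 ± 0.21 (adjusted p = 0.00402), and both ced1 signals lay above both WT signals. In 74.7% of all tested probe sets the signals of the genotypes did not overlap. AIM1, an enzyme of peroxisomal beta-oxidation that serves this step and fatty acid breakdown in general, had 2303 and 2064 in ced1 and 2771 and 2536 in WT. The difference of AIM1, -0.28 ± 0.13, had an adjusted p of 0.131, and it passed at -0.34 without WT array 2 (adjusted p = 0.0268). JMT, which methylates jasmonic acid, and the plastid lipase gene DGL lay under the filter level on average. JMT had 59.8 and 63.7 in ced1 against 168 and 99.8 in WT, and DGL stayed at 7 or below on every array. The lipoxygenase, AOS, AOC and OPR3 genes of the main synthesis route were not analysed here, and the values above leave that route undescribed.

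JRG21 (AT3G55970) codes for a 2-oxoglutarate-dependent oxygenase, also called JOX3 or JAO3, that hydroxylates jasmonic acid to an inactive form. Its signal was 126 and 117 on the ced1 arrays, against 1660.2 and 1265 on the WT arrays. JRG21 was thus low on both ced1 arrays, just over the filter level, and high on both WT arrays. The means were 121 ± 6.01 in ced1 and 1463 ± 279.5 in WT (SD, n = 2 each), and WT exceeded ced1 by a signal ratio of 12.0. The log2 difference was -3.41 ± 0.18 (95% interval -3.85 to -2.98, adjusted p = 9.85e-05). Since the ced1 signal is low, its size varied with the offset added before the logarithm, from -3.57 with an offset of 1 to -3.03 with an offset of 64.

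The other jasmonate oxygenases of the same family were lower in ced1 as well where they could be tested. Of the 10 genes listed for jasmonate inactivation, 4 had a named probe set, and these are the 4 members of the JOX family. The 3 that were tested were all lower in ced1, JRG21 among them, against 19.2% of all tested probe sets. JOX2 (AT5G05600) had signals of 629.5 and 841 on the ced1 arrays, against 1406 and 1304.5 on the WT arrays. JOX4 (AT2G38240) had 544 and 656 in ced1, against 1279 and 1189 in WT. Neither gene's ced1 signals overlapped its WT signals, as held for 74.7% of all tested probe sets. Both genes stayed well above the filter level in each genotype. The log2 difference was -0.88 ± 0.18 for JOX2 (adjusted p = 0.00709) and -1.03 ± 0.16 for JOX4 (adjusted p = 0.00253).

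JOX2 did not pass without ced1 array 1, at -0.68 (adjusted p = 0.0937). JOX1 (AT3G11180) lay under the filter level, with 12.7 and 26.2 in ced1 and 31.1 and 55.6 in WT, and had no test. The within-array gap of JRG21 to JOX2 shifted by -2.53 between genotypes and its gap to JOX4 by -2.39 on the log2 scale, with groups that did not overlap. With 2 arrays against 2, an exact two-sided permutation test cannot go below p = 0.333, which is the value of both shifts. The CYP94 hydroxylases and the amidohydrolases IAR3 and ILL6, which turn over the isoleucine conjugate, were not analysed here.

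**Figure D2:**
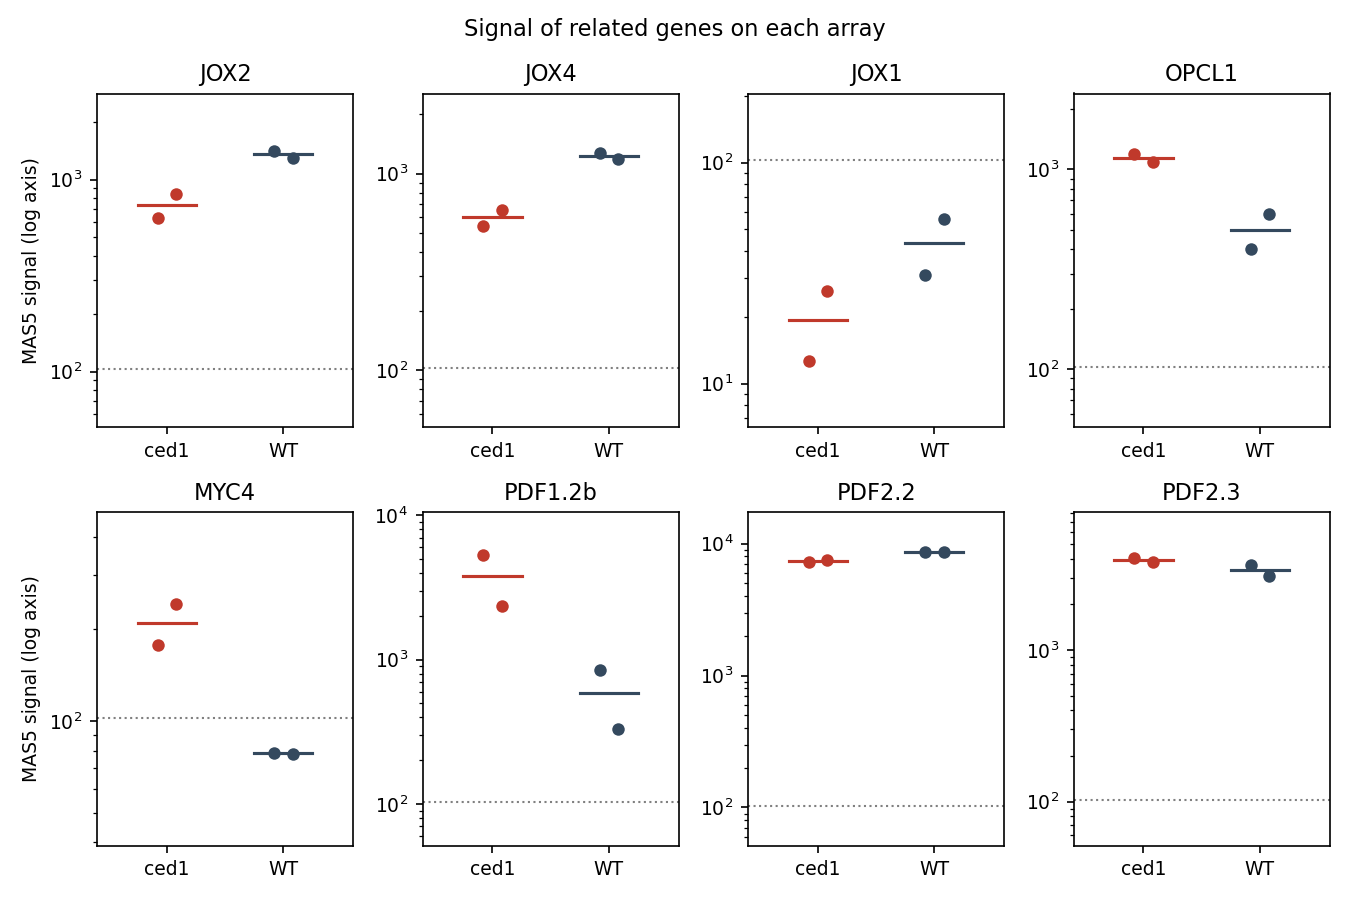
MAS5 signal (log axis, scaled for each panel) of JOX2, JOX4, JOX1, OPCL1, MYC4, PDF1.2b, PDF2.2 and PDF2.3 on the 2 ced1 arrays (red, left) and the 2 WT arrays (blue, right); points are arrays, bars are means and the dotted line is the filter level of about 103. JOX2 and JOX4 lie lower in ced1, OPCL1, MYC4 and PDF1.2b lie higher, and JOX1 lies under the filter level on all arrays.

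MYC3 (AT5G46760) codes for a basic helix-loop-helix factor that JAZ proteins repress and that overlaps in function with MYC2 and MYC4. Its signal was 309.8 and 310.4 on the ced1 arrays, against 458 and 515 on the WT arrays. The ced1 arrays were nearly equal and both below the WT arrays, and the gap between genotypes was small beside those of the other members. The means were 310.1 ± 0.424 in ced1 and 486.5 ± 40.3 in WT (SD, n = 2 each), with WT higher by a signal ratio of 1.57. The log2 difference was -0.62 ± 0.16 (95% interval -0.99 to -0.25, adjusted p = 0.0183). The call was lost without ced1 array 1, at -0.62 (adjusted p = 0.155), and without ced1 array 2, also at -0.62 (adjusted p = 0.159).

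MYC4 (AT4G17880) was the other MYC gene with a named probe set. Its signals were 178 and 242 on the ced1 arrays, against 78.7 and 78.1 on the WT arrays. The genotypes did not overlap, as in 74.7% of all tested probe sets. Its log2 difference was 1.25 ± 0.23 (adjusted p = 0.00578). Its WT signals lie under the filter level, so MYC4 was tested only through its higher ced1 signals and had to differ to enter the fit. The test therefore adds no support to the difference, whose size depends on the offset and was 0.94 with an offset of 64. Without ced1 array 2 the call of MYC4 was lost, at 1.04 (adjusted p = 0.0692). The gap between MYC3 and MYC4 shifted by -1.87 between genotypes, with groups that did not overlap (exact permutation p = 0.333, the smallest possible). MYC3 and MYC4 were 2 of 23 entries in the list of jasmonate signalling genes. The receptor gene COI1, the JAZ genes and MYC2 were not analysed here.

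PDF1.2 (AT5G44420) codes for a plant defensin, a small secreted antifungal protein, and is a standard marker of joint jasmonate and ethylene signalling. Its signal was 3359.7 and 1048 on the ced1 arrays, against 520.3 and 222 on the WT arrays. Both ced1 arrays were higher than both WT arrays, but the arrays of a genotype lay far apart, by a ratio of 3.21 in ced1 and of 2.35 in WT. The means were 2204 ± 1635 in ced1 and 371 ± 211 in WT (SD, n = 2 each), a signal ratio of 5.94. The log2 difference was 2.41 ± 0.56 (95% interval 1.098 to 3.72, adjusted p = 0.0127). The size is therefore loosely known: it was 1.58 without ced1 array 1 (adjusted p = 0.0241) and 3.24 without ced1 array 2 (adjusted p = 0.00112), and it passed in both cases.

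The near-identical gene PDF1.2b (AT2G26020) had the profile most like that of PDF1.2. Its signals were 5280.4 and 2368 on the ced1 arrays, against 853 and 329 on the WT arrays, a log2 difference of 2.70 ± 0.48 (adjusted p = 0.00480). The order of the 4 arrays was that of PDF1.2, and the groups did not overlap, as in 74.7% of all tested probe sets. The probe set of PDF1.2b carries the suffix that Affymetrix gives to sets with probes shared between transcripts, so these signals may hold RNA of several PDF1.2 copies and are no separate evidence. PDF1.1 lay under the filter level on average, with 75.3 and 102 in ced1 against 3.1 and 6 in WT. Without the filter PDF1.1 passed, at 2.34 (adjusted p = 0.00474), a size that depends on the offset since its WT signals are low.

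Of the 12 entries listed for ethylene and jasmonate output, 5 had a named probe set and 3 were tested. PDF1.2 and PDF1.2b were higher, against 23.2% of all tested probe sets, though PDF1.2b is no separate evidence. EIN3 was lower, against 19.2%. EIN3 is a transcription factor of ethylene signalling, and so a regulator on this list and not an output gene. It had signals of 1632 and 1577 on the ced1 arrays, against 2227 and 2294 on the WT arrays. Its log2 difference was -0.49 ± 0.13 (adjusted p = 0.0193), and its call was lost when either ced1 array was left out (adjusted p = 0.166 without array 1 and 0.212 without array 2). THI2.1, a thionin gene induced by jasmonate, had 31.3 and 29.3 in ced1 and 35.8 and 23.5 in WT, with overlap and under the filter level. BSMT1, a methyltransferase gene and the named member of 13 listed outputs of the MYC branch, had 1.9 and 2.2 in ced1 against 42.2 and 2 in WT, also untested. VSP2, ORA59, ERF1 and the chitinase and hevein-like genes of this response were not analysed here. Neither were the 8 listed genes of salicylate signalling.

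Of the 7 other defensin genes listed, 4 were tested, all of them PDF2 genes, and none passed limma's adjusted threshold, against 42.4% of all tested probe sets. At an unadjusted p under 0.05, 2 of them, PDF2.1 and PDF2.5, would pass as lower. PDF2.2 had 7198 and 7514 in ced1 and 8626 and 8679.7 in WT, and PDF2.3 had 4062 and 3829 in ced1 and 3607 and 3098 in WT. Their log2 differences were -0.23 ± 0.11 (adjusted p = 0.125) and 0.24 ± 0.13 (adjusted p = 0.188). PDF2.5, at -0.40 ± 0.15 (adjusted p = 0.0723), and PDF2.2 did pass as lower with quantile normalization and with equal array medians, and PDF2.5 also without WT array 2 (adjusted p = 0.0370). PDF2.3 passed as higher without WT array 1, at 0.35 (adjusted p = 0.0214). PDF2.1 rested on 1 array, with 123 and 144 in ced1 against 1124 and 179 in WT, a difference of -1.66 ± 0.70 (adjusted p = 0.0944) that was -0.38 without WT array 1 and passed at -2.93 without WT array 2. Under the filter level lay PDF1.4, with 91.1 and 98.3 in ced1 against 58.5 and 93.1 in WT, and PDF2.4 and PDF2.6, with no signal over 45.4. The gap of PDF1.2 to PDF2.2, PDF2.3 and PDF2.5 shifted by 2.64, 2.17 and 2.80 between genotypes, without overlap (exact permutation p = 0.333 each, the smallest possible).

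**Figure D3:**
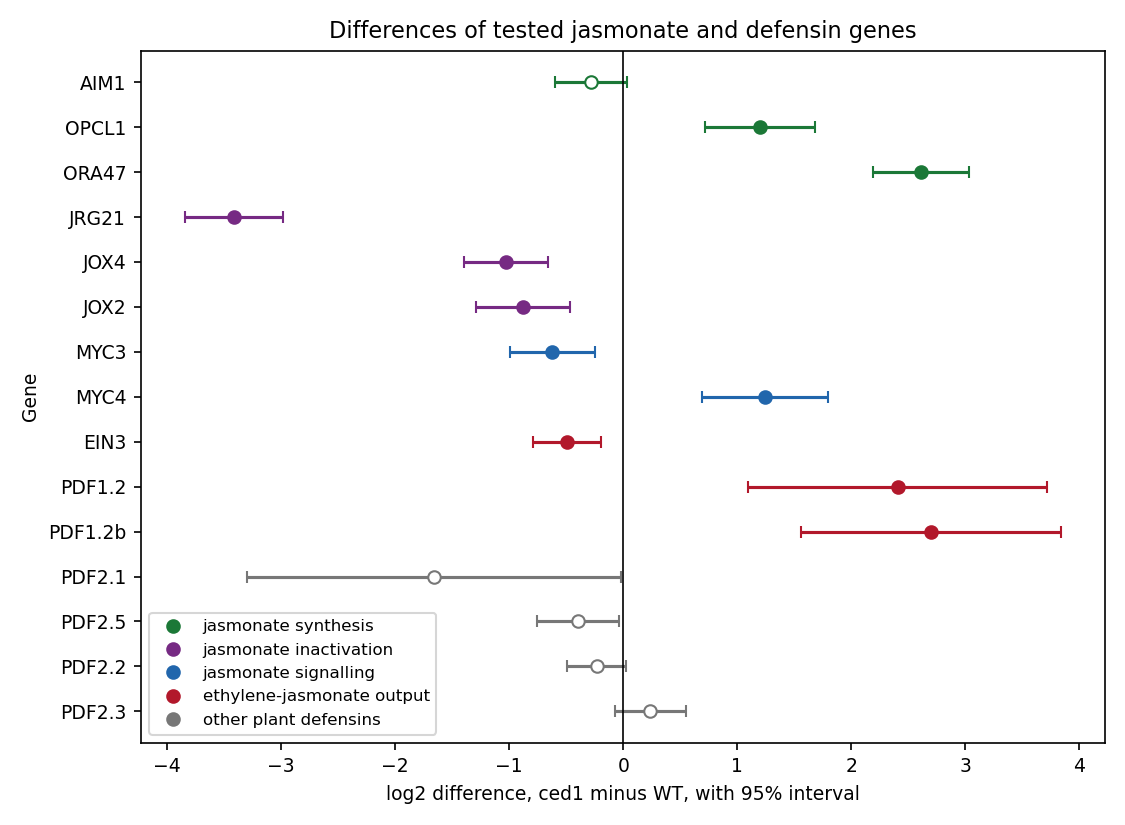
Log2 difference, ced1 minus WT, with its 95% interval for the 15 tested jasmonate and defensin genes, coloured by list; filled points passed an adjusted p of 0.05 and open points did not. JRG21, JOX4, JOX2, MYC3 and EIN3 lie below 0, OPCL1, ORA47, MYC4, PDF1.2 and PDF1.2b lie above it, and AIM1 and the 4 PDF2 genes are open.

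Across the 5 jasmonate lists, 17 of 83 entries had a named probe set and 11 were tested, with 5 higher in ced1 (MYC4, which entered the fit only through ced1, among them), 5 lower and AIM1 not past the threshold. The median difference of the 11 was -0.28, against 0.07 over all tested probe sets. Without the 4 members, the other 7 tested genes held 3 that were higher and 3 that were lower, with AIM1 not past the threshold. The 3 higher ones were OPCL1, MYC4 and PDF1.2b, of which PDF1.2b is no separate evidence beside PDF1.2. Over all tested probe sets 42.4% passed; the list genes are few and were chosen with results known, so the shares are set side by side without a test. When either ced1 array was left out, 7 list genes passed, and the share of all tested probe sets that passed was 20.1% without array 1 and 18.5% without array 2.

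The 4 genes were also set side by side within each array, as the gap between their log2 signals. The gap of JRG21 to ORA47 averaged -4.50 ± 0.26 on the ced1 arrays and 1.53 ± 0.53 on the WT arrays (SD, n = 2 each), a shift of -6.03. Against PDF1.2 the gap of JRG21 shifted by -5.82, and against MYC3 by -2.79. The gap of MYC3 to ORA47 shifted by -3.23 and that of MYC3 to PDF1.2 by -3.03. In these 5 pairs the groups did not overlap (exact permutation p = 0.333 each, adjusted p = 0.40 over the 6 pairs), and the design allows no smaller p. Each shift follows from the log2 differences of its 2 genes, which were picked with earlier results known. The gaps therefore add no separate evidence, and the same holds for the gaps to relatives given above. For the pair of genes that were higher, ORA47 and PDF1.2, the gap shifted by 0.20 with overlapping groups (exact permutation p = 1). Because PDF1.2 varied widely within each genotype, this does not show that the 2 genes differed between genotypes by the same amount.

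**Figure D4:**
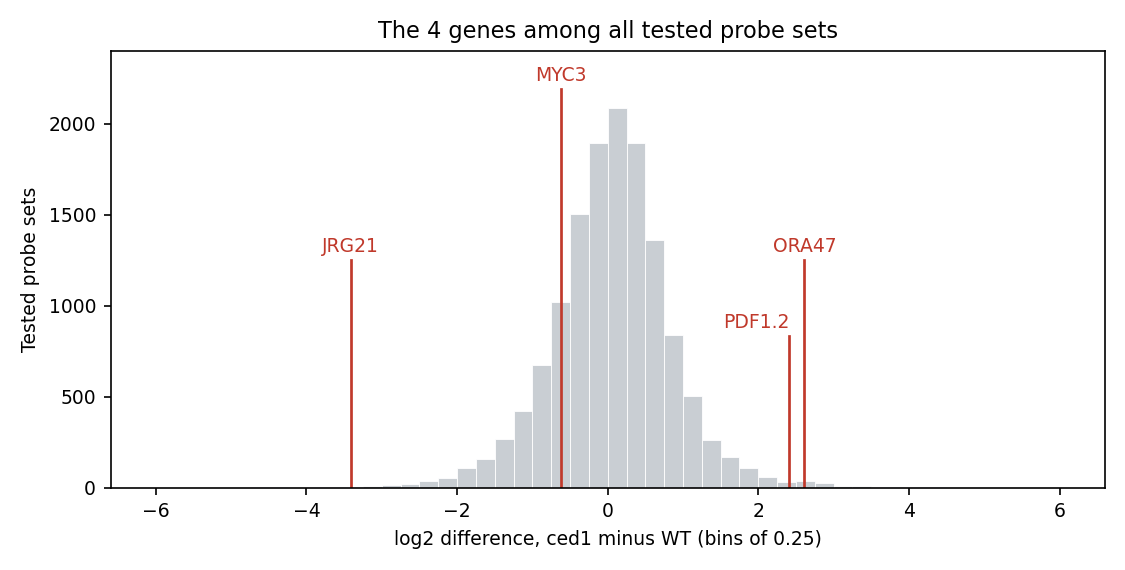
Number of tested probe sets (bars, of 13648) by log2 difference, ced1 minus WT, in bins of 0.25; red lines mark the 4 genes. JRG21 at -3.41, ORA47 at 2.61 and PDF1.2 at 2.41 lie in the tails, and MYC3 at -0.62 lies within the main body.

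For each member, the 3 named and tested genes with the most similar profile over the 4 arrays were found as those with the smallest Euclidean distance between log2 values centred on each gene's mean. For JRG21 these were AT1G49450, AT5G53710 and LEA18, a late embryogenesis abundant protein gene, at distances of 0.14 to 0.22. AT1G49450 had signals of 489 and 510.3 on the ced1 arrays, against 6265 and 5155 on the WT arrays. For MYC3 the nearest were AT5G11960, AT3G22440 and AT1G07310, at distances of 0.028 to 0.030, with differences between -0.64 and -0.61. For ORA47 they were AT4G28780, a GDSL-type esterase or lipase gene, AT3G06750 and AT5G57760, at distances of 0.23 to 0.25, with differences between 2.54 and 2.77. AT4G28780, with 26.1 and 40.8 in WT, and AT5G57760, with 39.8 and 56.9 in WT, entered the fit only through their ced1 signals, so their differences and distances depend on the offset. PDF1.2 had fewer close profiles: PDF1.2b lay at 0.48, BHLH101, a transcription factor gene of the iron deficiency response, at 0.83, and AT2G43550 at 1.153. BHLH101 had 463 and 220.0 in ced1 against 70.4 and 7.6 in WT. It too entered the fit only through its ced1 signals, so its difference and distance depend on the offset. These distances describe 4 arrays that mostly separate by genotype.

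Whole seedlings mix organs, and fewer cells of a type and less RNA per cell cannot be told apart. The leaf gene RCA, rubisco activase, was higher in ced1 with 20648 and 22675, against 12091 and 17157 in WT. Of the guard cell markers, GC1 was higher, with 1364 and 1350.3 in ced1 against 842 and 649 in WT, and FMA did not pass, with 191 and 155 in ced1 against 176 and 92.9 in WT, but passed as higher without WT array 1, at 0.79 (adjusted p = 0.0207). Of the root markers, PYK10 was lower, with 6310.0 and 5869 in ced1 against 9612 and 9389 in WT, EXPA18 did not pass, with 147 and 144 in ced1 against 130 and 178 in WT, and EXPA7, under the filter level, had 78.9 and 51.7 in ced1 against 46.3 and 127 in WT. RCA and PYK10 thus gave high signals in both genotypes. The log2 differences were 0.59 ± 0.17 for RCA (adjusted p = 0.0293), 0.86 ± 0.17 for GC1 (adjusted p = 0.00632) and -0.64 ± 0.11 for PYK10 (adjusted p = 0.00442), and none of these 3 passed without ced1 array 2 (adjusted p = 0.147, 0.0586 and 0.0725). The part of such shifts in the differences of ORA47, JRG21, MYC3 and PDF1.2 was not tested.

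**Figure D5:**
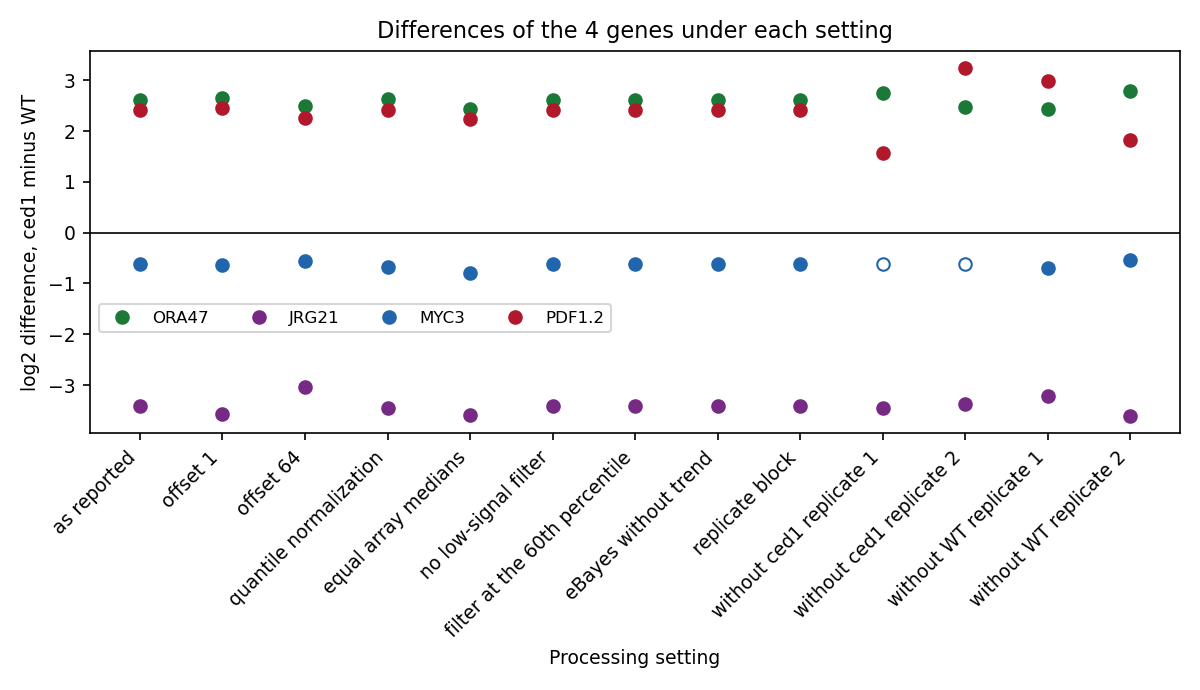
Log2 difference, ced1 minus WT, of ORA47, JRG21, MYC3 and PDF1.2 as reported and under each of the 12 alternative settings; filled points passed an adjusted p of 0.05 and open points did not. No gene changes sign, MYC3 does not pass without ced1 replicate 1 or 2, and PDF1.2 moves between 1.58 and 3.24 when an array is left out.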

How the data were processed

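The deposited intensity values are MAS5 signals, 1 per probe set for 22746 probe sets, per the submitters' processing notes. This algorithm removes background, corrects for mismatch probes and scales the arrays; in the file the mean between the outer percentiles was 494.4 to 495.7 on all 4 arrays. Its version and scaling target are not stated, and no detection calls were used, so a low signal may or may not stand for absence.

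Signals were analysed as log2(signal + 16), which understates the change of dim genes, in R 4.3.3 with limma 3.58.1 (lmFit, eBayes with intensity trend; genotype as the factor, no further normalization). Probe sets under the 40th percentile of mean log2 signal were left out, and p-values were adjusted over the other 13648 (Benjamini-Hochberg). As a check of the code, the fit was run on simulated data with known differences. That check covered the mean fitted sizes and not the rate of false calls. Groups came from the sample titles. In the annotation 13513 probe sets have 1 gene and 503 have several, while 8730 are unlisted. Of the single-gene ones, 13436 matched the TAIR10.1 gene table, which supplied loci. A gene without a single-gene probe set is "not analysed here". The 10 gene lists hold 117 entries, of which 30 had a probe set. Members and lists were chosen with earlier results of these data known. Genes named are the members, every list gene with a probe set and the 3 most similar profiles per member; gaps to relatives and neighbouring genes were chosen after values were seen. Gaps were tested by exact permutation. Alternatives changed the offset, normalization, filter, variance prior, replicate block and arrays used.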

Additional observations from a re-analysis of the deposited data

How the results depend on the processing

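Under 12 alternatives, each changing 1 choice, JRG21 (-3.61 to -3.03), ORA47 (2.43 to 2.79) and PDF1.2 (1.58 to 3.24) kept their direction and passed, with adjusted p of at most 0.000680, 0.000996 and 0.0361. MYC3 passed in 10 of 12 and kept its direction in all. With 1 array left out, which assumes that a lone array varies as the other genotype's arrays do, MYC3 ranged from -0.70 to -0.54, calls higher in ced1 from 1200 to 4535 (3161 as reported) and calls lower from 1329 to 3333 (2626). Counts fell without either ced1 array and grew without either WT array. With equal array medians the median over all tested probe sets was -0.09 in place of 0.07, and the counts were 2213 higher and 3437 lower. Of 188 values of the 16 other tested list genes, 164 kept direction and call, 12 lost and 10 gained the call, and 2 turned sign, both without WT replicate 2 and without passing. With an array left out, EXPA18 ranged from -0.27 to 0.15 and FMA from -0.024 to 0.79, where FMA passed as higher without WT replicate 1. RCA did not pass with equal medians, without the filter, without the trend or without either ced1 array, nor GC1 without either ced1 array. The labels do not say that a replicate number marks a shared batch, and deviations of same-numbered arrays correlated at 0.091. With the replicate block the counts were 3608 higher and 2951 lower, and the 4 members passed (PDF1.2 at 2.41 ± 0.18, against ± 0.56 as reported). PDF2.1 passed as lower at -1.66, although its WT signals were 1124 and 179. The block leaves 1 residual degree of freedom per probe set, so its SEs and calls lean on the variance prior. They show no gain in precision. Having 2 arrays a genotype limits the precision of every value.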

Other observations

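The genes beside each member on the chromosome, 2 protein-coding genes on either side in the TAIR10.1 gene table, were measured where a named probe set exists. Of those beside JRG21, AT3G55960 had a named probe set and did not pass, with 1048 and 966 on the ced1 arrays, against 739 and 942 on the WT arrays (log2 difference 0.27 ± 0.17, adjusted p = 0.235). Beside ORA47, ALDH10A8, an aldehyde dehydrogenase gene and the neighbour on one side, had 2584 and 2523 in ced1 and 2761 and 2694 in WT (-0.09 ± 0.12, adjusted p = 0.562), while AT1G74910 and AT1G74940 were higher at 0.78 ± 0.14 and 0.66 ± 0.19, AT1G74940 not passing without the low-signal filter (adjusted p = 0.0559). Beside MYC3, AT5G46780 was higher in ced1, at 0.57 ± 0.18 (adjusted p = 0.0398), but did not pass without the filter (adjusted p = 0.0769). UBP21 and AT5G46770 lay under the filter level, which applies to the mean log2 signal of the arrays. UBP21 had 185 and 210.3 in ced1 against 27.6 and 81.4 in WT (limma adjusted p = 0.0344 without the filter). AT5G46770 had 4 and 4.3 in ced1 against 1.3 and 2.2 in WT.

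Beside PDF1.2, AT5G44400, a gene of the berberine bridge enzyme-like family, had 629 and 475 in ced1 against 104 and 118 in WT (2.15 ± 0.20, adjusted p = 0.000433). Its relative AT5G44410 lay under the filter level on average, with 100.2 and 167 in ced1 against 52.1 and 43.7 in WT. Without the filter AT5G44410 passed as higher in the limma fit, at 1.195 (adjusted p = 0.0483). AT5G44440 lay under the filter level, with 20.2 and 4.5 in ced1 against 30.4 and 6.4 in WT. PDF1.2c, the adjacent copy, was not analysed here. Over all tested probe sets, 23.2% were higher in ced1 and 19.2% were lower. The neighbours of the members are few and were chosen after values were seen, so their calls were not tested against these shares.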
